A study of Mus musculus with 20 samples.

Results

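The genes described here are 10 of the 45306 genes counted in mouse liver RNA: G6pc, Pck1, Fbp1, Pcx and Slc37a4, which serve the making of glucose, Ppargc1a, Foxo1, Irs2 and Crebl2, which take part in its control, and Tat, an enzyme of amino acid breakdown. They were chosen by symbol for their place in gluconeogenesis and the fasting response. Liver RNA of 20 mice was sequenced as 1 library per mouse, in 4 groups of 5. The Control group held C57BL/6 mice kept at room temperature, and the CE group held C57BL/6 mice exposed to cold (CE), at 4 °C for 3 h per day over 3 weeks. The Sirt2-/- group lacked exons 5 to 7 of Sirt2 in the whole body, after CRISPR editing of fertilized C57BL/6 eggs, and was not exposed to cold, and the Sirt2-/-/CE group had the same deletion and the same cold exposure. Mice were 5 weeks old when they entered the groups. The number of founder lines, the sex of the mice, the hour at which livers were taken and any fast before that are not given in the sources used here. Mice had free access to food.

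Gluconeogenesis makes glucose from lactate, pyruvate, glycerol and amino acids, and the liver is its main site during a fast. Pyruvate carboxylase (Pcx) turns pyruvate into oxaloacetate in mitochondria, phosphoenolpyruvate carboxykinase (Pck1) carries it on to phosphoenolpyruvate, fructose-1,6-bisphosphatase (Fbp1) removes a phosphate further up, and glucose-6-phosphatase (G6pc), fed by the transporter Slc37a4, releases free glucose inside the endoplasmic reticulum. Glucagon acts through cAMP and CREB to switch on Pck1, G6pc and the coactivator Ppargc1a (PGC-1α), while insulin acts through Irs2 and Akt to keep the transcription factor FOXO1 out of the nucleus. SIRT2 is an NAD+-dependent deacetylase, and FOXO1 is among the proteins it is known to deacetylate.

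Promoters of G6pc, Pck1, Ppargc1a and Irs2 are shown because these genes varied widely between mice and their upstream sequence held a searched motif. RefSeq gave a promoter for 9 of the 10 genes, on GRCm38.p6, and Crebl2 was not among them. Each line below gives the bases within 250 before the start of the gene that lie outside annotated exons, 5′ to 3′ on the strand of the gene, with the motif in capitals.
G6pc (chr11:101367466-101367560, forward strand): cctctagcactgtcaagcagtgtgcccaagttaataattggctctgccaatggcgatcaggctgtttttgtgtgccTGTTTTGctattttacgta
Pck1 (chr2:173152823-173153047, forward strand): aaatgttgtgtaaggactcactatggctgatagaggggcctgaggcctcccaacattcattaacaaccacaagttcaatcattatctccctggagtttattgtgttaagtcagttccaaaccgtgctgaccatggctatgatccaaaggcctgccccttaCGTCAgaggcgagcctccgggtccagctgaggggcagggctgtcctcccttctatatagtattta
Ppargc1a (chr5:51567727-51567975, reverse strand): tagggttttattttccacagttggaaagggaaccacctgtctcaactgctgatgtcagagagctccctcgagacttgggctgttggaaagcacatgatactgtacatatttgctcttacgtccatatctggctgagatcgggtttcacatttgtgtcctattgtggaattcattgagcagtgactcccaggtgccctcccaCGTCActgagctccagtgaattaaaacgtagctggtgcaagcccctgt
Irs2 (chr8:11008930-11009179, reverse strand): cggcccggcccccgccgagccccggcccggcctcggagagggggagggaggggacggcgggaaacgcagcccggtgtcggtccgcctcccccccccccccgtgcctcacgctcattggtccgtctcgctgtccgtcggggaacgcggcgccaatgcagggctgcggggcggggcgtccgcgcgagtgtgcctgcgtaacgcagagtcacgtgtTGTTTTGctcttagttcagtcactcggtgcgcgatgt

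The motifs searched on both strands were the core of the cAMP response element TGACG and its full form TGACGTCA, the FOXO motif GTAAACA, the insulin response sequence CAAAACA and the core of the glucocorticoid response element AGAACA. The core TGACG, read from the other strand as CGTCA, stood with its leftmost base at position -90 before the start of Pck1 and at position -49 before that of Ppargc1a, and 17.8% of the 32851 promoters of the reference held it. The insulin response sequence, read as TGTTTTG, stood at -174 in G6pc and at -37 in Irs2, and 5.56% of promoters held it. Positions count from the RefSeq starts, at base 101367716 for G6pc, 173153073 for Pck1, 51567725 for Ppargc1a and 11008929 for Irs2. These starts differ from the gene bounds given below, which come from another annotation. Slc37a4 held TGACG before 2 of its 3 starts, inside annotated exons. TGACG lies within TGACGTCA. The promoters of Fbp1, Pcx, Foxo1 and Tat held none of these letters within 250 bases, and none of the 9 genes searched held GTAAACA (3.17% of promoters), AGAACA (16.1%) or TGACGTCA (1.55%) there. These are matches of letters and were not tested for binding.

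Libraries held 35499796 to 53917339 counts, and levels of a gene between mice are given as CPM, counts scaled to a common library total. The targeted gene Sirt2 was at 41.3 to 44.5 CPM in Control and at 40.2 to 56.2 in CE, against 16.9 to 27.5 in Sirt2-/- and 18.97 to 27.5 in Sirt2-/-/CE, so both knockout groups lay below both wild-type groups, and counts remained in every knockout mouse. The counts are per gene, so where in Sirt2 these reads lay is not known here. The 6 hepatocyte markers summed to between 8.05e+04 and 1.57e+05 CPM in each mouse. The 5 endothelial markers, none at 0, summed to 131 to 241 CPM in Sirt2-/-/CE against 24.7 to 130.0 in CE, and muscle, kidney and adipocyte markers to under 1 CPM in every mouse. The 3 intestine markers summed to 44.5 to 70.8 CPM in Sirt2-/-/CE and 21.3 to 37.7 in CE. They summed to 21.8 to 44.5 CPM in Control and 11.4 to 48.2 in Sirt2-/-. The 6 pancreas markers summed to at most 2.12 CPM in Control, 8.39 in CE, 8.93 in Sirt2-/- and 0.606 in Sirt2-/-/CE. A clock score of each mouse, which sets the level of Dbp, Tef, Per3, Ciart and Nr1d2 against that of Arntl, Npas2 and Clock (difference of means of centred log2 CPM), lay between 1.33 and 3.36 in Control and under -4 in 4 mice, namely CE 9 (-4.52), Sirt2-/- 14 (-5.72), Sirt2-/- 15 (-6.48) and Sirt2-/-/CE 19 (-4.69). It lay between -0.81 and 2.42 in the other 11 mice outside Control, and 12 of all 15 lay below every Control mouse.

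Levels set between genes are given as FPKM, which accounts for gene length. Over the 20 mice the mean was highest for Pck1 (893 FPKM), Tat (875 FPKM) and Fbp1 (633 FPKM). G6pc followed at 119.6 FPKM, Pcx at 96.2 FPKM and Slc37a4 at 85.6 FPKM. The regulators were lower, with Crebl2 at 12.6 FPKM, Foxo1 at 3.87 FPKM, Irs2 at 2.46 FPKM and Ppargc1a at 1.62 FPKM. All 10 genes passed the filter on low counts, and the lowest count of any of them in any mouse was 22, for Irs2 in Sirt2-/-/CE 16.

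None of the 10 genes changed by the test used, edgeR's quasi-likelihood test with Benjamini-Hochberg adjustment over 15616 genes, in any of 5 pairs of groups or in the interaction of genotype and cold. In CE against Control 0 of 10 passed an adjusted p of 0.05, where 0.0064% of all genes tested did (1 gene), and 2 of 10 had an unadjusted p under 0.05, where 10.7% of all genes had. In Sirt2-/- against Control 0 of 10 passed, where 0.89% of all genes did (139 genes), and 1 of 10 had an unadjusted p under 0.05 (14.9% of all genes). Sirt2-/-/CE against Control gave 0 of 10 (0.122% of all genes, 19 genes) and 1 of 10 (11.2%). Cold exposure within the knockout, Sirt2-/-/CE against Sirt2-/-, gave 0 of 10 (0% of all genes) and 0 of 10 (7.25%). The knockout under cold, Sirt2-/-/CE against CE, gave 0 of 10 (0.0128% of all genes, 2 genes) and 0 of 10 (6.09%). The interaction, which is the cold response of the knockout minus that of the wild type, gave 0 of 10 (0% of all genes) and 1 of 10 (8.34%). DESeq2 called 0 of 10 in each of these but Sirt2-/-/CE against Control, where it called Irs2, and limma voom called 0 of 10 in all 6. Over all genes CE against Control gave 164 calls by DESeq2, 540 by limma voom and 68 by edgeR without Control 4, and Sirt2-/-/CE against Control gave 232, 340 and 67. Sirt2-/- against Control gave 606 by DESeq2, 906 by limma voom and 5 to 375 by edgeR with 1 mouse left out. DESeq2 called 11 in Sirt2-/-/CE against Sirt2-/- and 44 in the interaction, where limma voom called 0 and 0, and 30 in Sirt2-/-/CE against CE, where limma voom called 2. The 3 pairs against Control share its mice.

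**Figure D1:**
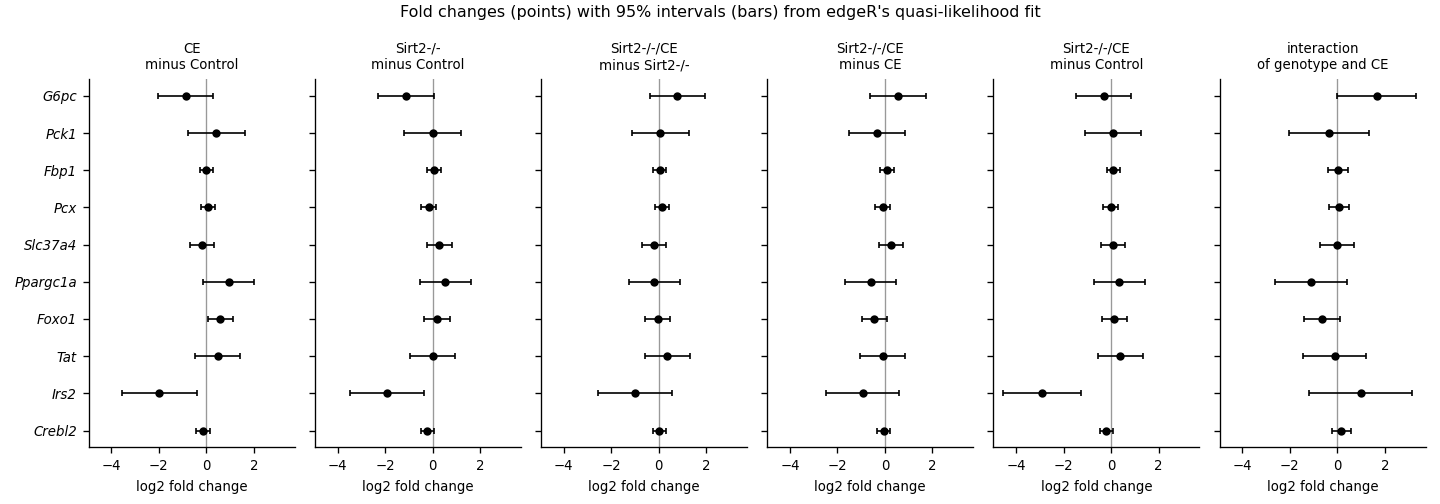
Log2 fold changes (points, horizontal axis) with 95% intervals (bars) of the 10 genes (vertical axis) in 5 pairs of groups and in the interaction of genotype and CE, from edgeR's quasi-likelihood fit to 20 mice. Intervals are widest for Irs2, G6pc, Pck1 and Ppargc1a and narrowest for Fbp1, Pcx and Crebl2, and no gene passed an adjusted p of 0.05.

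No pair of groups was separated by any of these genes: the mice of the 2 groups overlapped for 10 of 10 genes in each pair. Over all genes tested, groups did not overlap for 3.04% in CE against Control, 3.61% in Sirt2-/- against Control, 0.743% in Sirt2-/-/CE against Sirt2-/-, 1.22% in Sirt2-/-/CE against CE and 2.71% in Sirt2-/-/CE against Control. The median log2 fold change of the 10 was 0.037 in CE against Control (-0.0079 over all genes), 0.0091 in Sirt2-/- against Control (0.017 over all genes) and 0.081 in Sirt2-/-/CE against Control (0.033 over all genes). It was 0.029 in Sirt2-/-/CE against Sirt2-/- (0.0060 over all genes) and -0.096 in Sirt2-/-/CE against CE (0.017 over all genes), where 7 of 10 were below 0. In bulk liver RNA, fewer cells of a type and less RNA per cell cannot be told apart.

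**Figure D2:**
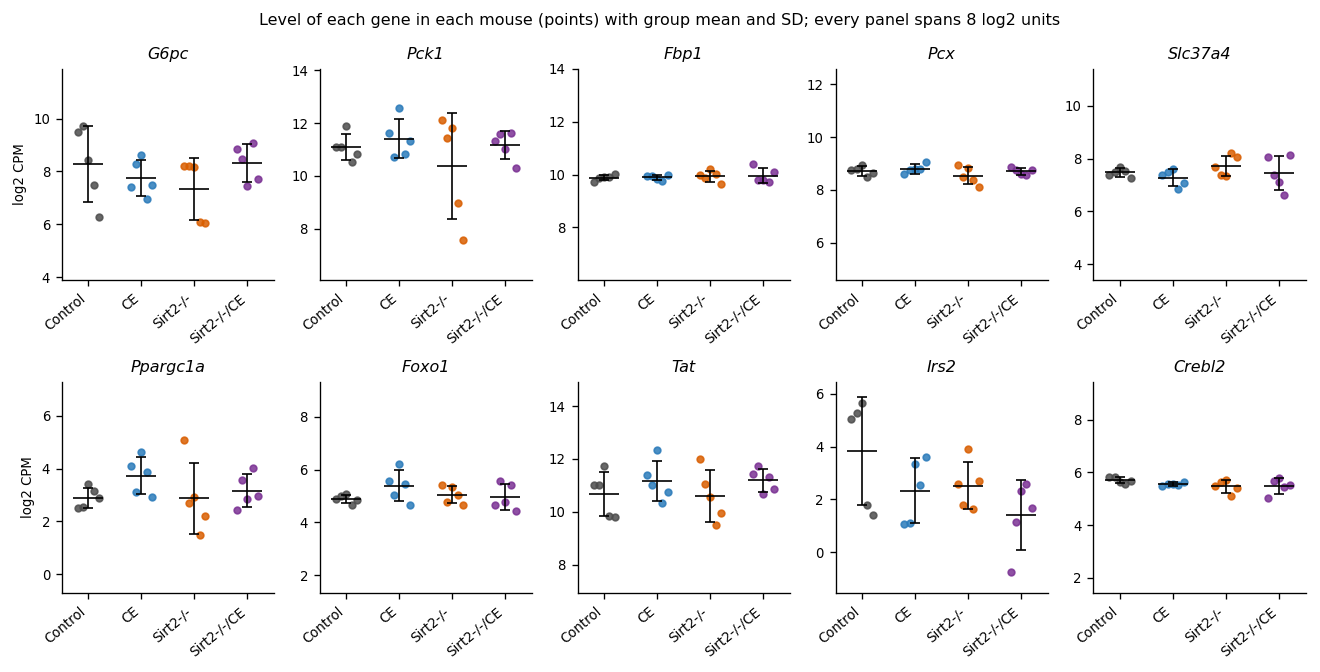
Log2 CPM (vertical axes, each panel 8 log2 units high) of the 10 genes in each of the 20 mice (points) by group (horizontal axes), with the mean and SD of 5 mice as bars. G6pc, Pck1, Tat, Ppargc1a and Irs2 spread widely inside groups, Fbp1, Pcx and Crebl2 lie in a narrow band, and the groups overlap in every panel.

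Glucose-6-phosphatase (G6pc, ENSMUSG00000078650, chromosome 11 from 101367561 to 101377903) varied more inside the Control group than its group means differed. Control mice were at 720.0, 848, 342, 178 and 77.5 CPM, a 10.9-fold range, and CE mice at 171, 309, 396, 125 and 180 CPM. Sirt2-/- mice were at 294, 298, 285, 67.1 and 66.6 CPM, and Sirt2-/-/CE mice at 461, 360, 173, 538 and 208 CPM. The top value lay in Control and the lowest pair in Sirt2-/- 14 and 15, which also had the lowest clock scores, and all 4 groups overlapped. Means were 433 ± 337 CPM in Control, 236 ± 113 in CE, 202 ± 124 in Sirt2-/- and 348 ± 158 in Sirt2-/-/CE (SD, n = 5 each). The log2 fold change was -0.88 ± 0.56 (SE) in CE against Control and -1.10 ± 0.57 in Sirt2-/- against Control, with adjusted p of 0.63 and 0.37 by edgeR. Without Control 2 these were -0.48 and -0.71, and with the clock score as a covariate -0.42 and -0.60. Without the 4 mice of low clock score the second was -0.57. Cold went with a higher mean in the knockout and a lower one in the wild type, and the interaction was 1.66 on the log2 scale (95% interval 0.00046 to 3.32, unadjusted p = 0.0499 and adjusted p = 0.60 by edgeR). Without the 4 mice of low clock score the interaction was 0.73, with an adjusted p of 0.86 by edgeR.

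Phosphoenolpyruvate carboxykinase (Pck1, ENSMUSG00000027513, chromosome 2 from 173153048 to 173159273) had nearly the same mean in Control and Sirt2-/-, with a far wider spread in the knockout. Control mice were at 2168, 2172, 3814, 1491 and 1839 CPM, and CE mice at 3180, 1691, 6053, 1801 and 2578 CPM. Sirt2-/- mice were at 4460, 2756, 3630, 501 and 188 CPM, a 23.7-fold range, and Sirt2-/-/CE mice at 2532, 3065, 2071, 3183 and 1258 CPM. Sirt2-/- 14 and 15 were the lowest of all 20 mice, while Sirt2-/- 11 was second only to CE 8. The log2 fold change of Sirt2-/- against Control was 0.0064 (95% interval -1.19 to 1.199, adjusted p = 0.997 by edgeR), and it turned negative in 7 of the 10 fits that each left out 1 mouse. It was 0.62 with the clock score as a covariate and 0.66 without the 4 mice of low clock score. The median was at 2168 CPM in Control and 2756 CPM in Sirt2-/-. The log2 fold change was 0.41 ± 0.57 in CE against Control (adjusted p = 0.87) and 0.070 ± 0.57 in Sirt2-/-/CE against Sirt2-/- (adjusted p = 0.997). The first was 0.0063 without CE 8, 0.67 without Control 3 and 1.18 with the clock score as a covariate. The last became -0.71 without the 4 mice of low clock score and 0.71 with the clock score as a covariate.

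Fructose-1,6-bisphosphatase (Fbp1, ENSMUSG00000069805, chromosome 13 from 62864753 to 62888282), an enzyme of the same route, was among the steadiest genes of the liver. It ranged from 788 to 1342 CPM over all 20 mice, a 1.70-fold range. Group means were 947 ± 66.4 CPM in Control, 949 ± 60.9 in CE, 986 ± 140 in Sirt2-/- and 1008 ± 208 in Sirt2-/-/CE (SD, n = 5 each). The highest and the lowest values were both in knockout mice, Sirt2-/-/CE 16 and Sirt2-/- 15. Its 95% intervals were narrow, at -0.28 to 0.29 in CE against Control and -0.23 to 0.35 in Sirt2-/- against Control on the log2 scale.

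Pyruvate carboxylase (Pcx, ENSMUSG00000024892, chromosome 19 from 4510472 to 4621752) had a like narrow spread, from 276 to 539 CPM. Its means were 426 ± 53.9 CPM in Control, 448 ± 56.3 in CE, 382 ± 86.8 in Sirt2-/- and 420 ± 38.0 in Sirt2-/-/CE (SD, n = 5 each). The lowest mice were again Sirt2-/- 15 and 14, at 276 and 335 CPM, and the log2 fold change of Sirt2-/- against Control was -0.16 ± 0.15 (adjusted p = 0.67 by edgeR). Without the 4 mice of low clock score it was 0.024.

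The glucose-6-phosphate transporter (Slc37a4, ENSMUSG00000032114, chromosome 9 from 44396852 to 44402968) had no clear relation to G6pc from mouse to mouse (r = -0.14 after subtraction of group means, permutation p = 0.49, adjusted 0.61). Values in Control were 168, 181, 207, 183 and 155 CPM, and CE mice at 168, 180, 193, 114 and 135 CPM. In Sirt2-/- they were 206, 167, 163, 294 and 264 CPM, and Sirt2-/-/CE mice at 266, 165, 138, 97.6 and 282 CPM. Sirt2-/- 14 and 15, lowest for G6pc and Pck1, were among the 4 highest for Slc37a4, and Sirt2-/-/CE 19, highest of its group for G6pc, was the lowest of all. CE 9 was the lowest of its group for both. Sirt2-/- against Control gave a log2 fold change of 0.29 ± 0.24 (adjusted p = 0.63 by edgeR), which was 0.00056 without the 4 mice of low clock score.

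Tyrosine aminotransferase (Tat, ENSMUSG00000001670, chromosome 8 from 109990437 to 109999803) starts the breakdown of tyrosine and is a classic target of glucocorticoids and glucagon. The Control mice had 2069, 2062, 3378, 921 and 903 CPM, and CE mice at 2723, 2070, 5224, 1300 and 1702 CPM. The Sirt2-/- mice had 4074, 2135, 1504, 717 and 979 CPM, and Sirt2-/-/CE mice at 2733, 3373, 1622, 2564 and 1846 CPM. The highest mice, CE 8 and Sirt2-/- 11, were also the highest for Pck1, and the lowest, Sirt2-/- 14, was second lowest there. Its log2 fold change was 0.48 ± 0.45 in CE against Control, 0.012 ± 0.45 in Sirt2-/- against Control and 0.38 ± 0.45 in Sirt2-/-/CE against Control, with adjusted p of 0.78, 0.99 and 0.81 by edgeR. In CE it was 0.061 without CE 8 and 0.81 without Control 3. With the clock score as a covariate the 3 values were 0.96, 0.68 and 1.16.

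Ppargc1a (ENSMUSG00000029167, chromosome 5 from 51454250 to 51567726), the coactivator that fasting raises in liver, had its highest value in a single knockout mouse. Levels in Control were 5.58, 5.73, 10.6, 8.84 and 7.30 CPM, and CE mice at 16.9, 8.58, 25.1, 14.7 and 7.63 CPM. Levels in Sirt2-/- were 33.7, 6.46, 7.54, 2.77 and 4.57 CPM, and Sirt2-/-/CE mice at 5.34, 11.7, 7.22, 16.3 and 7.86 CPM. In CE 3 of 5 mice lay above every Control mouse, and in Sirt2-/- only Sirt2-/- 11 did. In Sirt2-/-/CE mice 17 and 19 did. The log2 fold change was 0.94 ± 0.52 in CE against Control (95% interval -0.14 to 2.02, unadjusted p = 0.084 and adjusted p = 0.56 by edgeR). In Sirt2-/- against Control it was 0.54 ± 0.51 (adjusted p = 0.68), and it was -0.51 without Sirt2-/- 11 and 1.07 without the 4 mice of low clock score.

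Foxo1 (ENSMUSG00000044167, chromosome 3 from 52268336 to 52353221), which encodes the factor that insulin restrains, was above every Control mouse in some mice of each other group. In Control it was at 29.6, 32.1, 33.5, 24.9 and 28.4 CPM, and CE mice at 47.1, 32.8, 74.0, 44.4 and 24.9 CPM. In Sirt2-/- it was at 43.0, 27.5, 40.2, 33.2 and 25.3 CPM, and Sirt2-/-/CE mice at 25.4, 46.9, 27.0, 42.7 and 21.5 CPM. In CE 3 of 5 mice lay above every Control mouse, and CE 10 lay near the lowest Control mouse. Sirt2-/- 11 and 13 and Sirt2-/-/CE 17 and 19 lay above every Control mouse as well. In CE against Control the log2 fold change was 0.59 ± 0.25 (95% interval 0.056 to 1.12), with an unadjusted p of 0.032 that did not hold after adjustment over all genes (adjusted p = 0.42 by edgeR). Without CE 8 it was 0.33, and by limma voom 0.36. It was 0.19 ± 0.25 in Sirt2-/- against Control (adjusted p = 0.79) and -0.048 ± 0.25 in Sirt2-/-/CE against Sirt2-/- (adjusted p = 0.995). Exons of Foxo1 share 674 of 8665 bases with Gm20402 on the other strand, which had 0 counts in all libraries.

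Irs2 (ENSMUSG00000038894, chromosome 8 from 10984681 to 11008458), the adaptor that links the insulin receptor to PI3 kinase, had the largest log2 fold changes against Control of the 10 genes and the widest spread on the log2 scale. Control mice were at 32.9, 38.4, 50.5, 3.41 and 2.62 CPM, and CE mice at 2.03, 2.10, 10.2, 5.87 and 12.2 CPM. Sirt2-/- mice were at 6.04, 3.44, 14.9, 3.07 and 6.43 CPM, and Sirt2-/-/CE mice at 0.546, 2.20, 4.92, 6.04 and 3.14 CPM. Controls 1, 2 and 3 lay above every mouse of the other groups, Control 4 lay within the range of each of them, and Control 5 within those of CE and Sirt2-/-/CE. Means were 25.6 ± 21.6 CPM in Control, 6.49 ± 4.65 in CE, 6.77 ± 4.77 in Sirt2-/- and 3.37 ± 2.17 in Sirt2-/-/CE (SD, n = 5 each).

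The log2 fold change of Irs2 was -1.98 ± 0.75 in CE against Control (unadjusted p = 0.016 and adjusted p = 0.34 by edgeR) and -1.92 ± 0.75 in Sirt2-/- against Control (unadjusted p = 0.019 and adjusted p = 0.22). In Sirt2-/-/CE against Control it was -2.92 ± 0.78 (95% interval -4.56 to -1.29, unadjusted p = 0.0013 and adjusted p = 0.16). DESeq2 gave -2.93 for this pair with an adjusted p of 0.0199, and over all 19 alternatives for the pair the adjusted p ran from 0.0199 to 0.37. These values share the same Control mice, and leaving out 1 mouse at a time kept the 3 differences between -3.24 and -1.52. Irs1, a relative of Irs2 with the same role, was at 0.45 ± 0.30 in CE and at 0.027 ± 0.30 in Sirt2-/- on the same scale against Control (adjusted p = 0.65 and 0.98 by edgeR). Exons of Irs2 share 162 of 6323 bases with 9530052E02Rik on the other strand, which held at most 1.48% of the joint counts.

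Crebl2 (ENSMUSG00000032652, chromosome 6 from 134830154 to 134858931), which encodes a small protein related to CREB, was steady in every group. It ranged from 32.3 to 57.0 CPM, with means of 52.2 ± 4.45 CPM in Control, 47.1 ± 2.003 in CE, 44.6 ± 7.12 in Sirt2-/- and 45.4 ± 8.45 in Sirt2-/-/CE (SD, n = 5 each). Control had the highest mean, and the log2 fold change of Sirt2-/- against Control was -0.23 ± 0.13 (unadjusted p = 0.10 and adjusted p = 0.45 by edgeR). Without the 4 mice of low clock score it was -0.095.

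The 10 genes ranged from steady to variable between mice. The SD between mice of a group, pooled over the 4 groups on the log2 CPM scale, was 1.44 for Irs2, above that of 97.3% of tested genes, 1.14 for Pck1 (91.8%), 1.05 for G6pc (89.4%), 0.84 for Ppargc1a (82.3%) and 0.78 for Tat (79.2%). Foxo1 at 0.43 and Slc37a4 at 0.42 lay near the median of all tested genes, which was 0.43. Pcx at 0.22 (12.3%), Crebl2 at 0.20 (9.0%) and Fbp1 at 0.19 (7.2%) were steadier than most genes. Of the 5 genes of the glucose-making steps, Fbp1 and Pcx were thus far under the median spread, Slc37a4 lay near it, and Pck1 and G6pc were far above it.

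**Figure D3:**
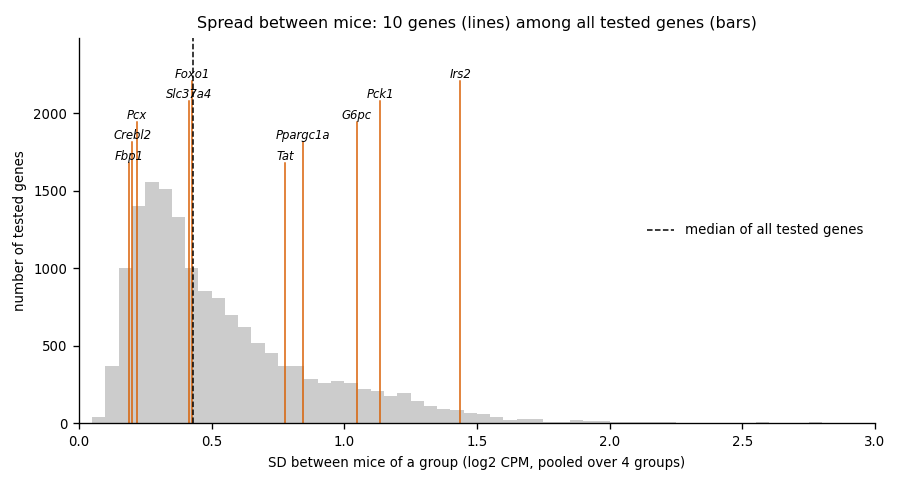
Number of tested genes (vertical axis) by the SD of log2 CPM between mice of a group, pooled over 4 groups (horizontal axis), with the 10 genes as labelled lines and the median of all tested genes as a dashed line. Irs2, Pck1, G6pc, Ppargc1a and Tat lie in the right tail and Fbp1, Crebl2 and Pcx in the left part, and 26 genes with an SD above 3 lie beyond the axis.

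Several of the variable genes rose and fell together from mouse to mouse inside groups. After each gene's group mean was subtracted, 34 of 45 pairs of genes (75.6%) had a positive Pearson's r over the 20 mice, against 49.8% of all pairs of tested genes. An r of at least 0.55 was found for 10 of the 45 (22.2%) and for 5.54% of all pairs, which share the same libraries. This bound was the lowest r among the 8 pairs that passed below, so it was taken from the 10 genes themselves. These shares are given as a description and are no test. With permutation tests inside groups and Benjamini-Hochberg adjustment over the 45 pairs, 8 pairs passed by r, all positive, and 5 of them passed by Spearman's rho as well. G6pc and Tat had r = 0.76 (adjusted permutation p = 0.018) and rho = 0.79 (0.018), and Pck1 and Tat had r = 0.75 (0.018) and rho = 0.81 (0.0050). Ppargc1a and Foxo1 had r = 0.65 (0.018) and rho = 0.77 (0.018). G6pc and Pck1, the enzymes of the final release of glucose and of the early step from oxaloacetate, had r = 0.65 (0.043) and rho = 0.70 (0.029). Pck1 and Foxo1 had r = 0.56 (0.043) and rho = 0.68 (0.029).

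Each of these 5 relations kept its sign when the 2 mice farthest from the median of the gene named first were left out, with r of 0.72, 0.75, 0.82, 0.65 and 0.51 in the order given. Over the 16 mice without the 4 of low clock score, r was 0.69, 0.75, 0.68, 0.50 and 0.65. Inside single groups r was above 0 in 4 of 4 groups for all of them but Ppargc1a and Foxo1, where it was above 0 in 3 of 4. The other pairs past the threshold by r alone were Ppargc1a with Tat (0.66), Foxo1 with Tat (0.57) and Irs2 with Crebl2 (0.55). The most negative r was that of Slc37a4 with Crebl2, -0.55 (adjusted permutation p = 0.20). Fbp1, which follows the same route as Pck1 and G6pc, had r of 0.26 with Pck1 and 0.049 with G6pc. Pcx, as steady, had r of 0.69 with Pck1 and 0.50 with G6pc (adjusted permutation p = 0.11 and 0.19). Its r with Pck1 was 0.41 without Sirt2-/- 11 and 15, and was above 0 in 2 of 4 groups.

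**Figure D4:**
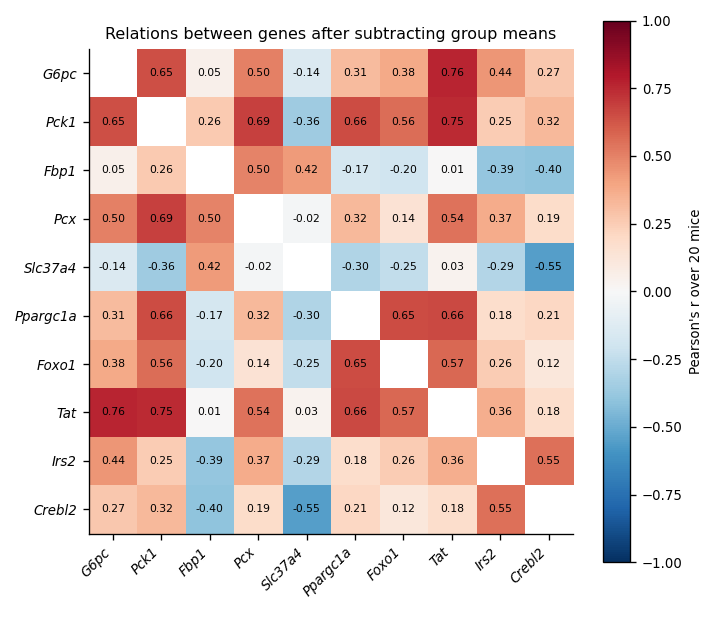
Pearson's r over 20 mice (colour and number) between each pair of the 10 genes, in log2 CPM after subtraction of the mean of each mouse's group. G6pc, Pck1, Tat, Ppargc1a and Foxo1 form a block of positive values up to 0.76, and Slc37a4 is negative with Crebl2 (-0.55) and Pck1.

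Genes outside the 10 differed between the same mice. Igfbp1, a liver gene that insulin represses, was at 175, 196 and 561 CPM in Controls 1, 2 and 3, which had high Irs2, and at 4.44 and 19.1 CPM in Controls 4 and 5. It was at 579 CPM in CE 8 and 349 CPM in Sirt2-/- 11, the mice with the highest Pck1, Tat and Ppargc1a. It was at 10.3 and 11.3 CPM in Sirt2-/- 14 and 15, which had the lowest Pck1 and G6pc. Other mice with little Igfbp1 were mixed. Pck1 was the lowest of its group in Control 4 (1491 CPM, Igfbp1 4.44 CPM) and CE 7 (1691 CPM, Igfbp1 20.3 CPM), but not in Sirt2-/- 12 (2756 CPM, Igfbp1 13.5 CPM) or CE 6 (3180 CPM, Igfbp1 20.9 CPM). The other mice of low clock score differed from Sirt2-/- 14 and 15, with Igfbp1 at 261 CPM in Sirt2-/-/CE 19, the highest of its group for G6pc and Pck1, and at 75.8 CPM in CE 9, where Pck1 was at 1801 CPM. The clock gene Dbp was below every Control mouse in all 15 mice of the other groups, at 13.03 to 66.83 CPM in 11 of them. It was at 0.325 and 0.359 CPM in Sirt2-/- 14 and 15, 4.32 CPM in CE 9 and 2.46 CPM in Sirt2-/-/CE 19, against 71.6 to 98.98 CPM in Control, and its opposite in phase, Arntl, was at 15.5 to 25.9 CPM in these 4 mice against 0.123 to 3.28 CPM in Control. Of the other 11, 7 lay above every Control mouse for Arntl as well, up to 11.9 CPM in CE 7. With the clock score as a covariate 0 of 10 genes passed in each comparison, and so it was without the 4 mice of low clock score, an exclusion chosen after seeing the data. Over all genes both settings gave 0 calls in Sirt2-/- against Control, in place of 139.

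**Figure D5:**
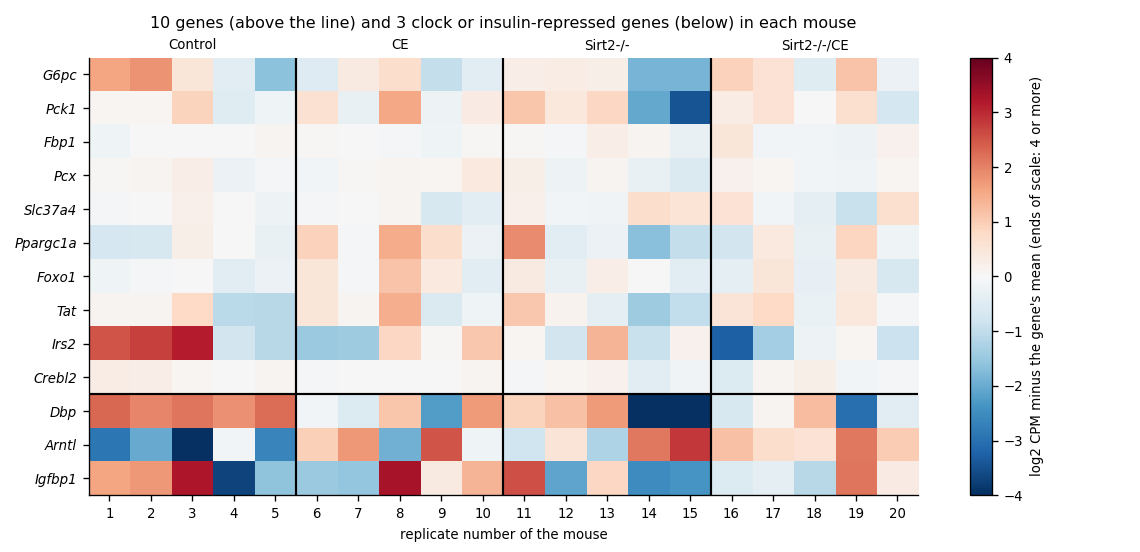
Log2 CPM minus the mean of each gene over 20 mice (colour) for the 10 genes, above the line, and for Dbp, Arntl and Igfbp1, below it, with the mice in columns by group and replicate number. Sirt2-/- 14 and 15 have low Pck1, G6pc and Dbp and high Arntl, and Controls 1, 2 and 3 have high Irs2 and Igfbp1.

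For each of the 10 genes, the tested genes outside the list with the highest Pearson's r of log2 CPM over the 20 mice were found, group differences included. For Irs2 they were St6gal1 (0.91) and Scamp1 (0.90), for Crebl2 Met (0.91) and Nfix (0.91), and for Ppargc1a Ell2 (0.91) and Cpeb2 (0.86). For Slc37a4 they were Tha1 (0.91) and Polr2h (0.88), for Pck1 Tmed5 (0.90) and Bnip3l (0.89), and for Fbp1 Ap1s1 (0.89) and Mea1 (0.87). For Tat they were Ddit4 (0.85), a glucocorticoid-induced gene, and Sftpa1 (0.85), and for Pcx Cd47 (0.85) and Eef2 (0.80). For G6pc they were Lipg (0.83) and a predicted gene without a symbol (0.82), and for Foxo1 Mir5125 (0.81) and Ctcfl (0.79). These are the top of 15616 genes over 20 points that share libraries, and they are given as a description.

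The rest of the pathway was read from lists around the 10 genes. Of the enzymes that gluconeogenesis shares with glycolysis and others of the route, 0 of 14 tested passed in any pair. Phosphoglycerate mutase Pgam1 had a log2 fold change against Control of 0.28 ± 0.12 in CE and of 0.26 ± 0.12 in Sirt2-/- (adjusted p = 0.43 and 0.32 by edgeR). Triose-phosphate isomerase Tpi1 was at 0.43 ± 0.19 in Sirt2-/- (adjusted p = 0.28). The median of the list was -0.065 in Sirt2-/- against Control, beside 0.017 over all genes. It was 0.012 in CE against Control (-0.0079 over all genes) and 0.17 in Sirt2-/-/CE against Control (0.033), with 10 of 14 above 0 in the latter. In Sirt2-/-/CE it was 0.29 against Sirt2-/- (0.0060 over all genes) and 0.11 against CE (0.017), with 11 of 14 above 0 in each.

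Among 16 tested genes that supply substrate, 1 fell in Sirt2-/- against Control, the glutamine transporter Slc38a3, which fell by 1.06 on the log2 scale (SE 0.21, adjusted p = 0.034 by edgeR), where 0.89% of all genes were called. DESeq2 and limma voom called it as well, at -1.07 (adjusted p = 0.00027) and -0.97 (adjusted p = 0.0032). It was at -0.79 ± 0.21 in CE against Control (adjusted p = 0.19). Its adjusted p in Sirt2-/- was over 0.05 by edgeR with the clock score as a covariate (log2 fold change -0.69, adjusted p = 0.23), without the 4 mice of low clock score (-0.79, adjusted p = 0.32) and without any single one of Controls 1, 2 and 3 and Sirt2-/- 12, 14 and 15 (0.058 to 0.103). The hepatic glucose transporter Slc2a2 was at -0.97 ± 0.24 in CE and -0.67 ± 0.24 in Sirt2-/- (adjusted p = 0.17 and 0.18). In this list 13 of 16 fold changes were below 0 in CE and 13 of 16 in Sirt2-/- against Control, with medians of -0.24 and -0.34, beside -0.0079 and 0.017 over all genes. In Sirt2-/-/CE against Control 9 of 16 were below 0, with a median of -0.15 (0.033 over all genes). Above 0 were 10 of 16 in Sirt2-/-/CE against Sirt2-/- (median 0.050, 0.0060 over all genes) and 10 of 16 in Sirt2-/-/CE against CE (0.11, 0.017). In the interaction 13 of 16 were above 0, with a median of 0.38 (0.0016 over all genes).

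Beside Tat, 0 of 5 genes of tyrosine breakdown passed in any pair. The last enzymes of that route, Fah and Gstz1, were at -0.40 ± 0.16 and -0.32 ± 0.12 in Sirt2-/- against Control (adjusted p = 0.22 and 0.19 by edgeR), and the next enzyme after Hpd, Hgd, was at 0.31 ± 0.15 (adjusted p = 0.34). In the list of glucagon and cAMP signalling 0 of 16 passed in any pair. Sik1, a kinase that CREB induces and that restrains the same programme, was at -1.72 ± 0.61 in CE and -1.78 ± 0.61 in Sirt2-/- (adjusted p = 0.29 and 0.16). Adenylate cyclase Adcy6 was at -0.68 ± 0.28 in Sirt2-/- (adjusted p = 0.25), and the protein kinase A subunit Prkaca at 0.26 ± 0.11 in CE (adjusted p = 0.40).

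Of 14 genes of insulin signalling 0 passed in any pair. The regulatory subunit of PI3 kinase Pik3r1 was at -0.63 ± 0.27 in Sirt2-/- against Control (adjusted p = 0.26 by edgeR), and the kinase Akt1 was at 0.18 ± 0.13 in CE (adjusted p = 0.69). Of 19 further transcription factors and coregulators 0 passed in any pair. Nr0b2, the small heterodimer partner that represses bile acid synthesis, was at 1.26 ± 0.35 in Sirt2-/- (adjusted p = 0.081), Kat2a, the acetyltransferase GCN5, at 0.39 ± 0.14 in CE (adjusted p = 0.32), and Foxo4, a relative of Foxo1, at 0.24 ± 0.14 in CE (adjusted p = 0.60). Nr4a3 was near 0 in many mice, at 0 to 3.33 CPM in Control and 0 to 0.164 CPM in Sirt2-/- (adjusted p = 0.18), and no fold is given for it.

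Genes that fasting raises and genes that feeding raises were each read as a list. Of 14 fasting-induced genes 1 rose in Sirt2-/- against Control, Cyp4a14, a fatty acid hydroxylase that PPARα drives, by 2.97 on the log2 scale (SE 0.51, adjusted p = 0.020 by edgeR), where 0.89% of all genes were called, and its relative Cyp4a10 was at 1.33 ± 0.37 (adjusted p = 0.079). DESeq2 and limma voom called Cyp4a14 at 2.97 (adjusted p = 3.8e-07) and 2.81 (adjusted p = 0.0034). Its call was lost by edgeR without Control 2 (log2 fold change 3.002, adjusted p = 0.062) or without Sirt2-/- 14 (2.73, adjusted p = 0.067), with the clock score as a covariate (log2 fold change 2.85, adjusted p = 0.16) and without the 4 mice of low clock score (2.56, adjusted p = 0.23). In CE against Control, 0 of 14 passed, with the kinase gene Pdk4 at 0.89 ± 0.45 (adjusted p = 0.50) and the thioesterase gene Acot2 at -1.04 ± 0.42 (adjusted p = 0.38). Of 12 feeding-induced genes 1 fell in Sirt2-/- against Control, the desaturase Scd1, which fell by 2.99 on the log2 scale (SE 0.58, adjusted p = 0.031), against the same 0.89% of all genes. It was at -2.996 by DESeq2 (adjusted p = 3.4e-06) and at -2.80 by limma voom (adjusted p = 0.0022). It was at -2.84 with the clock score as a covariate (adjusted p = 0.17) and at -2.58 without the 4 mice (adjusted p = 0.29), and its adjusted p was 0.058 to 0.103 without any single one of Controls 1, 2 and 3 and Sirt2-/- 12, 14 and 15. All 12 had fold changes below 0 there, with a median of -1.07 beside 0.017 over all genes, among them Pklr, liver pyruvate kinase, at -1.25 ± 0.33 (adjusted p = 0.068) and Fasn, fatty acid synthase, at -1.41 ± 0.53 (adjusted p = 0.21). In CE against Control 10 of 12 were below 0, with a median of -0.38 (-0.0079 over all genes) and 0 passing, and in Sirt2-/-/CE against Control, which shares the Control mice, 8 of 12 were below 0, with a median of -0.23 (0.033 over all genes) and 0 passing. In Sirt2-/-/CE against Sirt2-/- 12 of 12 were above 0, with a median of 0.71 (0.0060 over all genes) and 0 passing. In the interaction 12 of 12 were above 0 too, with a median of 1.23 (0.0016 over all genes) and 0 passing. In Sirt2-/-/CE against CE 9 of 12 were above 0, with a median of 0.24 (0.017 over all genes) and 0 passing. Of 10 glucocorticoid-induced genes 0 passed in any pair, with Cdkn1a at 2.29 ± 0.96 in Sirt2-/- (adjusted p = 0.26) and Sgk1 at -0.82 ± 0.31 in CE (adjusted p = 0.32). Lcn2 was at -3.62 ± 1.22 in Sirt2-/- (adjusted p = 0.15), a value that rests on Control 3, at 290.9 CPM, since the other 4 Control mice were at 1.298 to 8.302 CPM and Sirt2-/- mice at 1.64 to 9.85 CPM.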

How the data were processed

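Liver RNA of 20 mice had been enriched for messenger RNA and sequenced on an Illumina NovaSeq instrument. The authors deposited 1 table with the count of reads per gene and mouse, without normalization, and an FPKM value beside each deposited count, scaled to gene length and depth. The submitters' processing notes name the build mm10, and the aligner, the counting tool and its handling of strand are not given in the sources used here. Groups came from the sample labels, whose replicate numbers run over all mice and pair none. The 9 lines without a gene were left out.

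The counts were analysed in R 4.3.3 with edgeR 4.0.16. Genes were filtered with filterByExpr (minimum count 10, minimum total 15), 15616 genes were scaled by TMM, and 1 quasi-likelihood fit held all 20 mice with group as its term (common dispersion 0.147). A gene was called at an adjusted p under 0.05, by the Benjamini-Hochberg method. The script was tested on simulated data. CPM used TMM library sizes, and log2 CPM a prior count of 2. Alternatives used DESeq2 1.42.0, limma 3.58.1, other scalings and filters, a clock score covariate, and fits that each left out 1 mouse. Relations between genes used 1e+05 permutations inside groups. Positions came from GENCODE vM21 on GRCm38, which shares coordinates with mm10, promoters from RefSeq, and near-identical genes (95% identity over 150 bases) from BLAST+ 2.17.0. Libraries of 35499796 to 53917339 counts differed from each other by more than counting noise in all 190 pairs (lowest median chi-square over genes 4.43, against 0.45 from noise alone). From each list, named genes were those with an adjusted p under 0.05 in a pair of groups and otherwise the 2 with the lowest p in each of CE and Sirt2-/- against Control. Some genes that this rule names are not reported here. The genes described, the lists and the motifs were chosen with earlier results of these data known. Gk of the substrate list and the marker Adgre1 were not found by symbol.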

Additional observations from a re-analysis of the deposited data

How the results depend on the processing

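The count of 0 of 10 genes held in 122 of 123 settings, and the exception was 1 gene, Irs2, by DESeq2 in Sirt2-/-/CE against Control. Many of these settings called few of all genes. With 1 mouse left out, edgeR called 0 of all genes in Sirt2-/-/CE against Sirt2-/- and 0 to 2 in the interaction. It called 1 to 6 in Sirt2-/-/CE against CE. A count of 0 of 10 says little about the 10 genes there, and fits that leave out 1 mouse share most of their mice. Of 1230 fold changes recomputed for the 10 genes, 39 turned sign under another setting and 69 when 1 mouse was left out, and none of those was past the threshold. The cause was not tested. With the clock score as a covariate, the sign turned for Pcx 0.051 in Sirt2-/- against Control, Ppargc1a 0.050 in Sirt2-/-/CE against Sirt2-/-, Pck1 0.15 and Tat 0.20 in Sirt2-/-/CE against CE. It also turned for G6pc 0.48 and Pcx 0.18 in Sirt2-/-/CE against Control, Fbp1 -0.084 and Pcx -0.11 in the interaction under that setting. With scaling by library size only, the sign turned for Fbp1 -0.020 in CE against Control, Fbp1 -0.050 and Crebl2 -0.033 in Sirt2-/-/CE against Sirt2-/-, Tat 0.028 and Crebl2 0.052 in Sirt2-/-/CE against CE, Pcx 0.043 in Sirt2-/-/CE against Control, Fbp1 -0.030 in the interaction. With limma voom and sample quality weights, the sign turned for Fbp1 -0.10, Ppargc1a 0.044 and Foxo1 0.028 in Sirt2-/-/CE against Sirt2-/-, Fbp1 -0.084, Slc37a4 -0.13, Tat 0.031 and Crebl2 0.038 in Sirt2-/-/CE against CE, Fbp1 -0.031 and Slc37a4 -0.32 in Sirt2-/-/CE against Control. It also turned for Fbp1 -0.15 and Pcx -0.022 in the interaction under that setting. Without a filter on low counts, the sign turned for Fbp1 -0.0042 in CE against Control. With upper-quartile scaling, the sign turned for Fbp1 -0.018 in CE against Control. Without the 4 mice of clock score under -4, an exclusion chosen after seeing the data, the sign turned for Pcx 0.024 in Sirt2-/- against Control, Pck1 -0.71, Pcx -0.023, Slc37a4 0.23, Tat -0.12 and Crebl2 -0.11 in Sirt2-/-/CE against Sirt2-/-, Pck1 -0.056 and Pcx 0.00095 in Sirt2-/-/CE against Control. It also turned for Fbp1 -0.049, Pcx -0.11 and Slc37a4 0.30 in the interaction under that setting. Where leaving out 1 mouse turned a sign, the log2 fold changes ran in CE against Control from -0.033 to 0.039 for Fbp1 and -0.0031 to 0.13 for Pcx, in Sirt2-/- against Control from -0.38 to 0.31 for Pck1, -0.0099 to 0.13 for Fbp1, -0.51 to 0.78 for Ppargc1a and -0.48 to 0.32 for Tat. Likewise they ran in Sirt2-/-/CE against Sirt2-/- from -0.24 to 0.45 for Pck1, -0.090 to 0.10 for Fbp1, -0.45 to 0.86 for Ppargc1a, -0.23 to 0.071 for Foxo1 and -0.055 to 0.13 for Crebl2, in Sirt2-/-/CE against CE from -0.49 to 0.067 for Pck1, -0.040 to 0.15 for Fbp1, -0.27 to 0.32 for Tat and -0.13 to 0.041 for Crebl2. They also ran in Sirt2-/-/CE against Control from -0.59 to 0.078 for G6pc, -0.048 to 0.33 for Pck1, -0.037 to 0.15 for Fbp1, -0.081 to 0.040 for Pcx, -0.10 to 0.25 for Slc37a4 and -0.038 to 0.25 for Foxo1, in the interaction from -0.67 to 0.071 for Pck1, -0.093 to 0.098 for Fbp1, -0.051 to 0.17 for Pcx, -0.21 to 0.14 for Slc37a4 and -0.43 to 0.38 for Tat. Scaling by library size only moved the median of all genes to 0.158 in Sirt2-/- against Control, with 330 calls higher and 89 lower in place of 60 and 79, to 0.109 in Sirt2-/-/CE against CE and to 0.101 in Sirt2-/-/CE against Control. Over all genes, Sirt2-/- against Control gave 606 calls by DESeq2, 906 by limma voom, 29 in a fit of only the 2 groups, 35 without a filter, 209 with at least 10 counts in every library and 5 to 375 with 1 mouse left out. That count was 5 without Control 2 or Sirt2-/- 14, 10 without Sirt2-/- 15, 13 without Control 1, 20 without Control 3, 25 without Sirt2-/- 12, 45 without Control 5 and 375 without Sirt2-/- 13. With 1 mouse left out, CE against Control gave 0 to 68 calls in place of 1, and Sirt2-/-/CE against Control gave 0 to 67 in place of 19, with the most without Control 4 in both and 0 in the second without Control 1, Control 3 or Sirt2-/-/CE 19. Scd1 and Slc38a3 were no longer called in a fit of only the 2 groups (adjusted p = 0.063 and 0.11 by edgeR). No paired analysis was possible because the groups share no replicate numbers. No fit of only 2 groups exists for the interaction. Precision was limited by the spread between 5 mice per group: the 95% interval of Irs2 in CE against Control spanned -3.55 to -0.41 on the log2 scale, while that of Fbp1 spanned -0.28 to 0.29.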
